A study of Mus musculus with 15 samples.

Results

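The repressive histone mark H3K27Me3 was compared between uninduced pre-B cells (0 h post-induction, hpi) and the macrophage-like cells they had become at 48 hpi. These are 2 of the 15 ChIP-seq libraries of a study that mapped 3 histone marks over 5 times, with 1 library per mark and time. Both libraries come from C10 cells, a single mouse line derived from the HAFTL pre-B line, which carries C/EBPα fused to the hormone-binding part of the estrogen receptor and tagged with GFP. The fusion is present at 0 hpi as well, and β-estradiol moves it into the nucleus. Induced cells were also grown with IL-3 and CSF-1, and control cells received the solvent ethanol, so effects of the fusion, the hormone and the cytokines cannot be told apart. There was no input or unmodified histone library among the files used here, so H3K27Me3 is given per tag sequenced and not per nucleosome. Because each time had 1 library, no difference could be set against replicate error and no test was run.

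H3K27Me3 is placed on lysine 27 of histone H3 by Polycomb repressive complex 2, with Ezh2 or Ezh1 as its catalytic subunit. It forms sharp domains at the CpG-rich starts of silent developmental genes and shallow blankets over silent gene clusters and the regions between genes. The demethylases Kdm6a and Kdm6b remove it, and the same lysine cannot carry both methyl groups and the acetyl group of H3K27Ac, a mark of active promoters and enhancers. H3K4Me1 marks poised and active enhancers.

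The 0 hpi file held 31.56 M tags and the 48 hpi file 15.36 M, both with at most 1 tag per position. The 0 hpi library was thinned at random to the 15.34 M tags that the 48 hpi library held on chromosomes 1 to 19 and X. Tags were counted in 502754 mappable windows of 5 kb and in the 5 kb centred on the starts of 22350 protein-coding genes, of which 21820 held a tag at 0 or 48 hpi. The mean window held 30.5 tags, and a window or start was called enriched at 50 tags or more. A window or start was called gained or lost when its tags, with 5 added to each library, differed at least 2-fold and the higher library was enriched. All H3K27Me3 values below are tags per 5 kb at this depth unless a domain is named, and a change is the log2 of 48 hpi over 0 hpi with 5 tags added. Intervals in brackets are 95% counting intervals of the log2 fold (exact binomial, without added tags). They hold no variation between cultures or immunoprecipitations.

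The labels of the H3K27Ac libraries were checked at marker genes, which does not check those of the H3K27Me3 libraries. At the starts of 24 pre-B cell genes the median log2 change of H3K27Ac was -1.83, and at 36 macrophage genes it was 2.07. Igll1, the surrogate light chain of the pre-B receptor, had 2360 H3K27Ac tags at 0 hpi and 660 at 48 hpi. Cd14, a co-receptor for lipopolysaccharide on macrophages, had 41 and 1846.

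At 91 of 21820 gene starts H3K27Me3 was gained or lost between 0 and 48 hpi. Of these, 55 were gained (0.252% of the starts with tags) and 36 were lost (0.165%), and the median change over all starts was 0.00. The lost starts were led by Ythdf3, Sema4a, Por, Itsn1 and the macrophage gene Cd14, and most of them were more acetylated at 48 hpi. The gained starts were led by the kallikrein gene Klk12, the C-type lectin gene Clec4b2, the olfactory receptor gene Olfr690 and Ms4a4b, and some of them lie next to each other. The order within each direction depends on the thinning. In the plot of all starts both sets form the outer edge of a continuous cloud around equality.

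**Figure D1:**
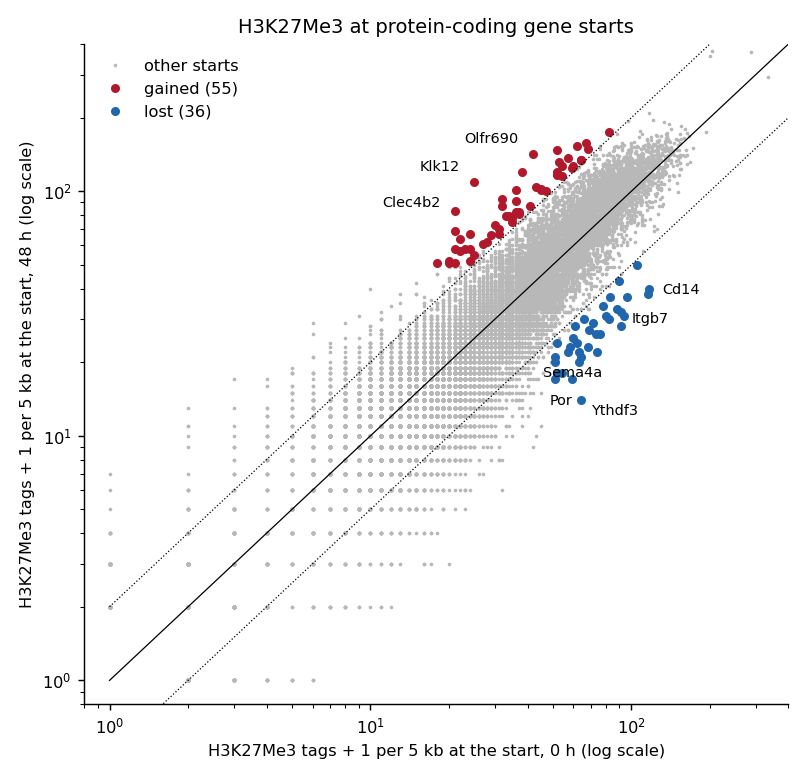
H3K27Me3 tags in 5 kb at each protein-coding gene start at 0 h (x axis) and 48 h (y axis), with 1 added and both axes on a log scale. Red points are the 55 gained and blue points the 36 lost starts, grey points are all others, the solid line marks equal values and the dotted lines mark 2-fold differences. Klk12 lies farthest above and Ythdf3 farthest below the line among the called starts.

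The split between gain and loss depends on how the libraries are scaled. Windows enriched at neither time held 0.904 times as many tags at 48 as at 0 hpi, and windows enriched at both held 1.12 times as many. Scaling by the former adds 0.14 to every log2 change and gave 116 gained and 29 lost starts (80.0% gained of those called, against 60.4% by total tags). Scaling by the latter adds -0.16, again without added tags, and gave 24 gained and 57 lost (29.6%). Which direction is more frequent at gene starts therefore has no fixed answer here. The median change was 0.00 over all starts and 0.15 over the 5923 starts enriched at 0 or 48 hpi, and the former became 0.12 or -0.12 with these scalings. Thinning with another random seed also moved starts across the 2-fold line or the enrichment limit. It kept 34 of the 55 gained and 28 of the 36 lost starts. Called under both scalings, the other seed and all tags scaled by total were 18 gained starts (32.7%), which include Klk12, Klk13, Klk14, Clec4b2, Ms4a4b, Gda, Nov, Ceacam18 and Olfr688 to Olfr691, and 24 lost starts (66.7%), which include Sema4a, Por, Cd14, Tlr2, Socs3, Bcl6, Itgb7 and Adipoq. Ythdf3 is not among them. Its changes were -1.81 and -2.03 under the scalings, -1.56 with the other seed and -1.68 with all tags. All of these are beyond 2-fold, so what it missed was the enrichment limit at 0 hpi.

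Promoter sequences of the called starts were read from the mm9 genome, 250 bases upstream of the start. They are shown for a pair of lost starts (Ythdf3 and Sema4a) and a pair of gained starts (Klk12 and Ms4a4b) near the top of each direction, because the mark is usually tied to CpG-rich starts and these differ in that feature. Capitals mark the CpG dinucleotides.

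Ythdf3, chr3:16082933-16083182, plus strand: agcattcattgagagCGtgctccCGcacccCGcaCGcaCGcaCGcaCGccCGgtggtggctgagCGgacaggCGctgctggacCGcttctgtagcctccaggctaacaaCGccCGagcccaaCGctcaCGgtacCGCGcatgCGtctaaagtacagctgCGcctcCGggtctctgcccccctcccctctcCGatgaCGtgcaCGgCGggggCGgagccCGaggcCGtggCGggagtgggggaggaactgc

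Sema4a, chr3:88265105-88265354, minus strand: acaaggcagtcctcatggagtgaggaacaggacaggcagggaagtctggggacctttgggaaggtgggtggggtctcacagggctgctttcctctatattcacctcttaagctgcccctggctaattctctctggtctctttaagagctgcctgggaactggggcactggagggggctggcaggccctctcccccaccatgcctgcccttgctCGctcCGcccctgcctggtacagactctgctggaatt

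Klk12, chr7:51024017-51024266, plus strand: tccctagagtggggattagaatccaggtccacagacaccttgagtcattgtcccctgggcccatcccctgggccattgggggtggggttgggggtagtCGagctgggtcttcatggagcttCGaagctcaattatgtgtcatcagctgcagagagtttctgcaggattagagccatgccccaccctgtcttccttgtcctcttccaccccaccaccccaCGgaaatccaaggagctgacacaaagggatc

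Ms4a4b, chr19:11517793-11518042, plus strand: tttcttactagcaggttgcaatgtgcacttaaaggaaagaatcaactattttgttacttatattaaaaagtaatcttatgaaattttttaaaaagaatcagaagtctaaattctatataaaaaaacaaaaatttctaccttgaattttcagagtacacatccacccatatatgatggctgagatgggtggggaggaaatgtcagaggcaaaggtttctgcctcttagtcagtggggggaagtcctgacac

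The Ythdf3 promoter holds 28 CpGs in these 250 bases, that of Sema4a 2, that of Klk12 3 and that of Ms4a4b 0. The median was 4 at gained, 5 at lost and 8 at all 22350 starts. The letters TTNNGNAAT, a form of the C/EBP motif, were searched on both strands and found in 9.09% of gained, 11.1% of lost and 9.74% of all promoters. GAGGAA, the core that PU.1 and other Ets factors bind, was found in 34.5%, 27.8% and 23.1%. A match is only a description of the letters.

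Among the starts that lost H3K27Me3, the change in 5 kb was largest at Ythdf3, which encodes a reader of methylated adenosine in RNA. This order depends on the thinning and the window. With another seed Ythdf3 changed by -1.56 and Sema4a by -1.74, with 2 kb they changed by -1.14 and -1.89 and with 10 kb by -1.08 and -1.63. At the annotated start with the most tags they changed by -1.92 and -0.79. Ythdf3 (chr3, start at 16083183) had 63 tags at 0 hpi, 40 at 3, 30 at 12, 12 at 24 and 13 at 48 hpi, a change of -1.92 (-3.26 to -1.40). Its values were lower at each time up to 24 hpi and alike at 24 and 48. Sema4a, a semaphorin of immune cells, had 73, 57, 58, 26 and 21 tags at these times (-1.58, -2.57 to -1.08). Por, the reductase that feeds electrons to cytochromes P450, had 58, 46, 42, 26 and 16 (-1.58, -2.76 to -1.04). Both lay well below their 12 hpi value at 24 hpi. Itsn1, an endocytic scaffold, had 90, 64, 66, 39 and 27 (-1.57, -2.41 to -1.10), but its window also holds the divergent start of Cryzl1 (79 tags at 0 and 30 at 48 hpi), and in the 2 kb around the Itsn1 start the change was 0.30, so the loss there is in the flanks.

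The macrophage genes Cd14, Tlr2 and Il1b were among the lost starts. Cd14 had 115 tags at 0 hpi, 107 at 3, 145 at 12, 63 at 24 and 37 at 48 hpi (-1.51, -2.21 to -1.09). Tlr2, a receptor for bacterial lipopeptides, had 63, 78, 51, 40 and 20 (-1.44, -2.46 to -0.91). Il1b, the cytokine interleukin 1β, had 50, 60, 51, 26 and 20 (-1.14, -2.15 to -0.55). At 12 hpi these 3 starts still had 51 tags or more, and at 24 hpi all 3 were below their 0 hpi value. Outside the macrophage list, Socs3, an inhibitor of cytokine receptor signalling, went from 116 tags at 0 hpi and 125 at 12 hpi to 62 at 24 and 39 at 48 hpi (-1.46, -2.14 to -1.04). Ifitm6 and Ifitm3, neighbouring members of the interferon-induced transmembrane family, went from 81 to 29 and from 77 to 33. Ifitm3 and Il1b, unlike Ifitm6, were not called under every scaling and thinning described above. Gpr77, a receptor for complement C5a, went from 68 to 26.

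Other starts among the 12 with the largest loss encode proteins with varied roles. Adipoq, the hormone adiponectin, went from 93 to 30 tags (-1.49), Psen2, a subunit of γ-secretase, from 62 to 19 (-1.48), and Ier3, an immediate early gene, from 67 to 22 (-1.42). In 10 kb around the start the changes were below 2-fold at Psen2 (-0.72), Ier3 (-0.45) and Bcl6 (-0.89). Bcl6, a transcriptional repressor of B cells and macrophages, had 75 tags at 0 and 92 at 12 hpi before it reached 25 at 48 hpi (-1.42, -2.30 to -0.91). Itgb7, the β7 integrin chain, kept 90 tags at 0 and 24 hpi, with 118 at 12, and had 31 at 48 hpi (-1.40, -2.18 to -0.93). By these values it was the latest of these 12 to change. The timing of single starts rests on 1 library per time. Over all starts, the 2-fold rule gave 17 gained and 4 lost from 0 to 12 hpi, but 2 gained and 33 lost from 12 to 24 hpi. How far this step reflects the libraries themselves was not tested. Among the remaining lost starts, Id1, an inhibitor of basic helix-loop-helix factors, went from 82 to 36 tags, Cdk4, a kinase of the G1 phase, from 87 to 32, and the clock repressor Cry2 from 53 to 17. Id1 was not called under every scaling and thinning described above. The windows of Cdk4 and Ier3 overlap that of another start, as do 8 of the 36 lost starts in all.

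Among the starts that gained H3K27Me3, Klk12 had the largest change in 5 kb, but in the 2 kb around its start the change was 0.82, below that of Clec4b2 (1.87). The order after Klk12 depends on the thinning. With all tags scaled by total, Klk12 changed by 1.90, Ms4a4b by 1.56, Olfr690 by 1.51 and Clec4b2 by 1.43. Klk12, a kallikrein serine protease (chr7, start at 51024267), had 24 tags at 0 hpi, 17 at 3, 32 at 12, 57 at 24 and 108 at 48 hpi, a change of 1.96 (1.52 to 2.87). Its neighbours Klk13 (52 to 131 tags), Klk14 (56 to 136) and Klk10 (29 to 72) were gained as well. Ceacam18, a member of the carcinoembryonic antigen family in the same stretch, went from 53 to 126 tags and had reached 126 at 12 hpi. With 4931406B18Rik these are 6 gained starts within 275 kb of chromosome 7.

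The olfactory receptor genes Olfr687 to Olfr691 formed a second group on chromosome 7, 5 gained starts within 62 kb. Olfr690 had 41, 52, 88, 99 and 141 tags at 0, 3, 12, 24 and 48 hpi (1.67, 1.27 to 2.32), and Olfr691 had 51, 46, 70, 111 and 147 (1.44, 1.06 to 2.02). Olfr688 went from 31 to 92 and Olfr689 from 35 to 100. In the 2 kb around the Olfr688 start the change was 0.91, below 2-fold. On chromosome 19, Ms4a4b, a relative of the B cell protein CD20 found in T cells, had 37, 47, 78, 70 and 119 tags (1.56, 1.14 to 2.26), and Ms4a6b, Gm8369 and Gm10212 within the same 126 kb were also gained. In all, 19 of the 55 gained starts lay in 5 groups with at most 200 kb between neighbours, and 6 of the 36 lost starts lay in 3 such pairs. Starts this close can share 1 domain and are not independent observations. Of the members named here, Klk10, 4931406B18Rik, Olfr687, Ms4a6b, Gm8369 and Gm10212 were not called under every scaling and thinning described above.

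Clec4b2, a C-type lectin receptor of myeloid cells (chr6, start at 123122911), had 20 tags at 0 hpi, 34 at 3, 39 at 12, 51 at 24 and 82 at 48 hpi (1.80, 1.32 to 2.82). Gda, a guanine deaminase, had 20, 30, 38, 48 and 68 (1.55, 1.03 to 2.56), and both were higher at each successive time. Mboat1, an acyltransferase of membrane lipids, went from 21 to 63, Nov, a secreted matricellular protein, from 23 to 66, the predicted gene Gm17365 from 31 to 86, and Cdc42ep4, an effector of the GTPase Cdc42, from 17 to 50. In 10 kb around the start the changes were below 2-fold at Gda (0.98), Mboat1 (0.89) and Cdc42ep4 (0.81). Cdc42ep4 sits at the enrichment limit, and with all tags scaled by total its change was 0.67. Gda then changed by 1.12 and Mboat1 by 1.06. With another seed Clec4b2 changed by 1.54, Gda by 1.15 and Mboat1 by 1.09, while Nov (1.51) and Gm17365 (1.42) changed more than in the main thinning. At the threshold itself, Sept10 (23 to 51 tags, 1.0) and Slc32a1 (40 to 86, 1.02) were just inside, while Pnmal1 (54 to 112, 0.99) and Anpep (63 to 129, 0.98) were just outside. On the side of loss Opcml (51 to 23, -1.0) was just inside and F5 (88 to 42, -0.98) just outside.

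**Figure D2:**
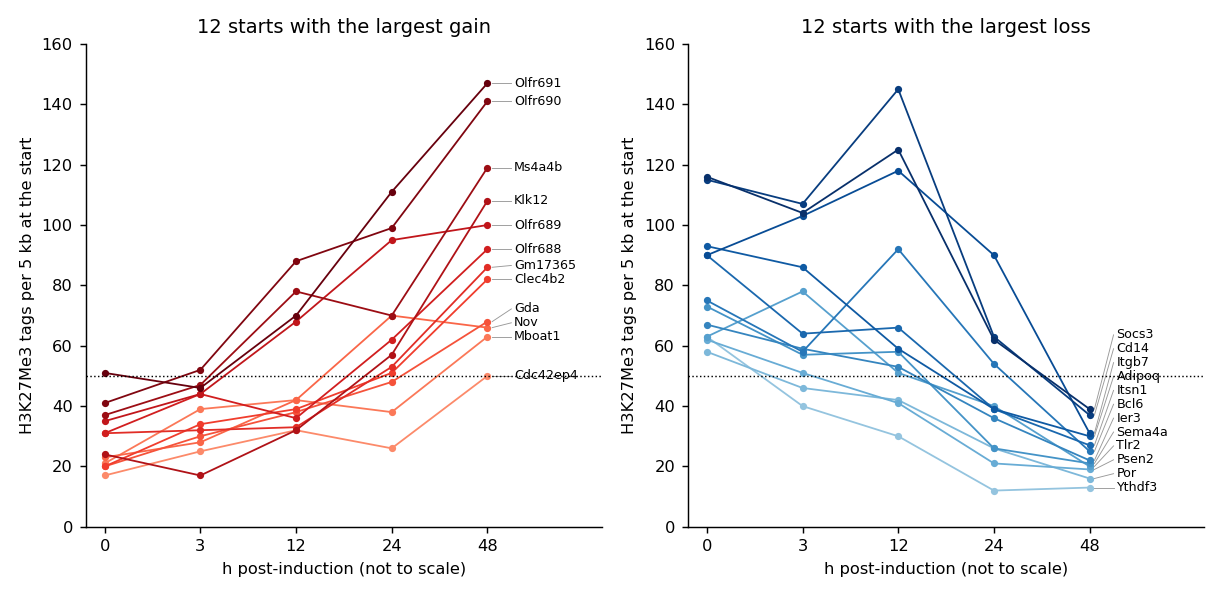
H3K27Me3 tags per 5 kb at the start (y axis) at 0, 3, 12, 24 and 48 h post-induction (x axis, evenly spaced, not to scale) for the 12 starts with the largest gain (left) and loss (right), 1 line per gene and 1 library per time. The dotted line is the enrichment limit of 50 tags. At 24 h the Cd14 line had come down from 145 to 63 tags, while Itgb7 was still at 90.

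The libraries of 3, 12 and 24 hpi played no part in the calls and were set beside them. Median tags of the 55 gained starts were 35 at 0 hpi, 44 at 3, 54 at 12, 56 at 24 and 86 at 48 hpi. For the 36 lost starts they were 67.5, 59.5, 53.5, 38 and 25. From 3 to 24 hpi, 49 of the 55 gained starts were higher, against 40.4% of all starts and 58.2% of those enriched at 0 or 48 hpi, with a median log2 change of 0.45. Of the 36 lost starts 32 were lower, against 53.9% of all and 38.7% of enriched starts, with a median of -0.70. By the 2-fold rule applied to 3 and 24 hpi, 24 starts were gained (0.110%) and 15 lost (0.0687%). Steps that begin at 0 or end at 48 hpi are enlarged by the choice of the starts, so only the values from 3 to 24 hpi are free of it.

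Over the genome, gained windows outnumbered lost windows under the enrichment limit, and this order turned without it (4189 gained and 8944 lost). Of the 502754 windows 2009 were gained (0.400%) and 374 lost (0.0744%) with the limit, and the number of called windows against 0 hpi grew with time. At 3 hpi 41 windows were gained (0.00816%) and 27 lost (0.00537%), at 12 hpi 352 (0.0700%) and 97 (0.0193%), and at 24 hpi 853 (0.170%) and 123 (0.0245%). These comparisons share the 0 hpi library. The split again moved with the scaling, from 84.3% gained of the called windows by total tags to 95.6% by windows enriched at neither time and 54.7% by windows enriched at both. Gained windows lay between genes in 64.5% of cases, in gene bodies in 29.2% and within 2500 bp of a start in 6.32%. For lost windows these shares were 51.6%, 34.2% and 14.2%, and for all windows 56.1%, 36.1% and 7.82%. Per chromosome, 0.108% (X) to 0.725% (15) of the windows were gained.

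The mark's genome-wide contrast was also higher at 48 hpi. Enriched windows held 40.9% of the tags at 0 hpi, 40.2% at 3, 44.7% at 12, 46.0% at 24 and 47.2% at 48 hpi. The median window had 24 tags at 0 and 21 at 48 hpi, and the 99th percentile was 106 and 125. Sorted by their level in the 12 hpi library, windows with less than 0.5 times the mean had a median change of -0.13, and those with at least 4 times the mean had 0.20. Of the windows enriched at 0 hpi, 83.0% were enriched at 48 hpi, and of those enriched at 48 hpi, 78.9% were enriched at 0 hpi. Joined across single gaps, they formed 19209 domains (485 Mb) at 0 hpi and 17701 (504 Mb) at 48 hpi. Domains of at least 100 kb numbered 845 at 0 hpi, 838 at 3, 868 at 12, 980 at 24 and 1016 at 48 hpi, and the longest measured 445 and 640 kb at the ends of the course. How far immunoprecipitation efficiency differed between the libraries was not tested.

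Called windows were joined to changed domains, which needed at least 3 called windows with at most 1 other between them. There were 169 gained domains of 15 to 120 kb (median 25, together 5235 kb) and 6 lost domains of 15 to 30 kb (96.6% gained of those called). Scaling by windows enriched at neither time gave 300 and 1 (99.7%), and by windows enriched at both 82 and 12 (87.2%). Of the gained domains 20 held the start of a protein-coding gene, 43 overlapped only gene bodies and 106 lay outside genes, whereas 5 of the 6 lost domains held a start. All 169 gained domains had more tags at 24 than at 3 hpi, and 160 had more at 12 than at 3 hpi. Among the 8882 domains enriched at 48 hpi with at least 3 enriched windows these shares were 75.3% and 74.9%. All 6 lost domains had fewer at 24 than at 3 hpi.

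The gained domain with the largest difference lay outside genes on chromosome 4 (chr4:80230001-80350000), 130027 bp from the nearest protein-coding start, that of the pigment cell gene Tyrp1. It held 703 tags at 0 hpi, 770 at 3, 1846 at 12, 2341 at 24 and 2543 at 48 hpi (log2 change 1.85, 1.73 to 1.98). Most of this gain was present at 12 hpi. The next domain (chr7:50935001-51025000) held the starts of Klk14, Klk13 and Klk12 and went from 793 to 2062 tags (1.37, 1.26 to 1.5). The third (chr7:112420001-112495000) held Olfr687 to Olfr691 and had 586, 644, 922, 1226 and 1600 tags at the 5 times (1.44, 1.31 to 1.59). The other three of the leading 6 held no start. They were chr1:72070001-72140000 (805 to 1721 tags, nearest start Gm5528), chr13:5480001-5545000 (523 to 1367, nearest start the zinc finger gene Klf6 at 315735 bp) and chr15:50800001-50860000 (604 to 1448, nearest start the repressor gene Trps1 at 78413 bp). In each of these 6 domains the tags were higher at every later time.

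The lost domain with the largest difference covered the start of Sema4a (chr3:88240001-88270000), with 398 tags at 0 hpi, 348 at 3, 343 at 12, 253 at 24 and 155 at 48 hpi (-1.33, -1.64 to -1.09). The domain of Cd14 on chromosome 18 had 351, 306, 378, 178 and 129 (-1.41, -1.75 to -1.15). That of Socs3 (chr11:117815001-117835000) went from 324 to 131, that of Ifitm3 and Ifitm6 (chr7:148190001-148210000) from 297 to 121 and that of Itgb7 (chr15:102060001-102080000) from 316 to 140. The remaining lost domain (chr11:100850001-100865000) held no start, lay 5766 bp from that of Atp6v0a1, a subunit of the proton pump, and went from 264 to 86. In the profiles, the window right of the Sema4a domain had 78 tags at 0 and 68 at 48 hpi. At Socs3 the window next to the domain went from 129 to 67 and the one after it from 123 to 142. With another random seed, or with all tags scaled by total, 3 lost domains were called.

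**Figure D3:**
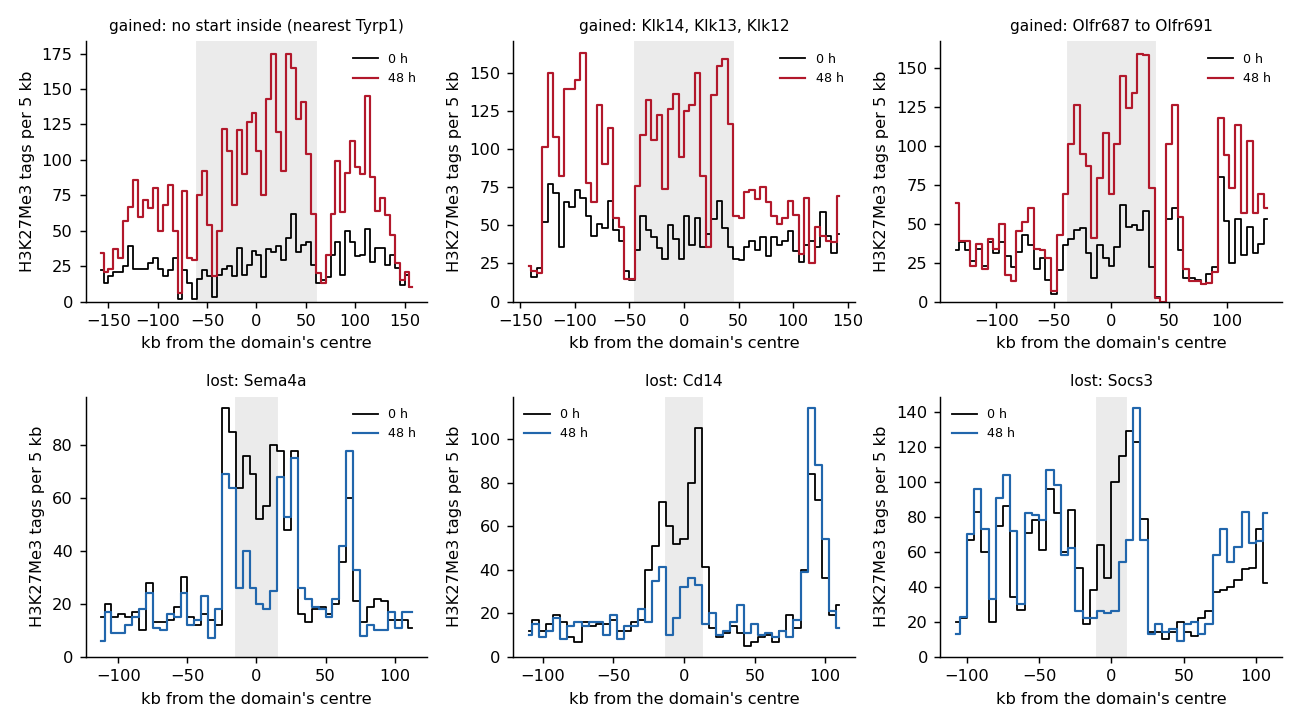
H3K27Me3 tags per 5 kb window (y axis) against the distance from the domain's centre in kb (x axis) at 0 h (black) and 48 h (coloured), for the 3 gained (top) and 3 lost (bottom) domains with the largest tag difference. Grey shading is the called domain. The top row gained 703 to 2543 tags over the domain at the left, and the bottom row shows Sema4a, Cd14 and Socs3 with losses inside the shading.

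H3K27Ac was set beside H3K27Me3 at the same starts, thinned to 15.22 M tags. By the 2-fold limit, 25 of the 36 lost starts had more H3K27Ac at 48 hpi and 2 had less, while 6.59% of all starts had more and 10.1% less. The median lost start had 59.5 H3K27Ac tags at 0 and 407.5 at 48 hpi (median log2 change 1.69). Ifitm6 had 23 and 1685, Itgb7 26 and 1104, Il1b 86 and 1565, Tlr2 159 and 1241, and Psen2 140 and 1418. At Ythdf3 the mark was high already, with 272 at 0 and 753 at 48 hpi. The lost starts without more acetylation include Igsf9b, Opcml, Rgs7bp and Hcrtr2, where H3K27Ac was at most 18 tags at either time. Of these, only Hcrtr2 was called under every scaling and thinning described above. H3K4Me1 (thinned to 10.91 M tags) was at least 2-fold higher at 14 of the 36 lost starts and lower at 3, against 3.97% and 10.8% of all starts. The 374 lost windows, most of them away from starts, did not share this at the median. They had 11 H3K27Ac tags at 0 and 8 at 48 hpi and 15 and 6 H3K4Me1 tags. Over all windows these medians were 7 and 6 for H3K27Ac and 8 and 5 for H3K4Me1. Over windows enriched in H3K27Me3 at 0 or 48 hpi they were 9 and 9, and 13 and 8. H3K4Me1 was at least 2-fold higher in 25.7% of lost windows and lower in 24.3%, against 5.70% and 13.1% of all windows. H3K27Ac was at least 2-fold higher in 30.7% of lost windows and lower in 10.4%, against 8.06% and 6.15% of all windows. The share of lost windows enriched in H3K27Ac was 11.5% at 0 and 31.8% at 48 hpi (7.65% and 11.0% of all windows). A 2-fold rise of H3K27Ac was thus more frequent in lost windows than over all windows, though not found in most of them.

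At gained starts H3K27Ac was not lower as a rule. It was at least 2-fold higher at 25 of the 55 and at least 2-fold lower at 4. Over all starts these shares were 6.59% and 10.1%, and over starts enriched in H3K27Me3 at 0 or 48 hpi 11.6% and 7.36%. The levels at gained starts were mostly low, with a median of 8 tags at 0 and 18 at 48 hpi in a genome with 30.3 H3K27Ac tags in the mean window. At some gained starts both marks on lysine 27 were higher at 48 hpi. Sdr16c6, a short-chain dehydrogenase gene, had 33 and 78 H3K27Me3 tags and 13 and 293 H3K27Ac tags. Ceacam18 had 13 and 273 H3K27Ac tags, Clec4b2 9 and 147, and Car4, a membrane carbonic anhydrase, 7 and 93. In the opposite direction, Sost, a Wnt inhibitor of bone, had 19 and 50 H3K27Me3 tags and 289 and 53 H3K27Ac tags, and Tgfb2, a transforming growth factor, 30 and 66 against 121 and 20. Sdr16c6, Car4, Sost and Tgfb2 were not called under every scaling and thinning described above, while Ceacam18 and Clec4b2 were. H3K4Me1 was at least 2-fold higher at 18 of the 55 gained starts and lower at 1. For H3K4Me1 these shares were 3.97% and 10.8% over all starts and 7.33% and 14.2% over those enriched in H3K27Me3.

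**Figure D4:**
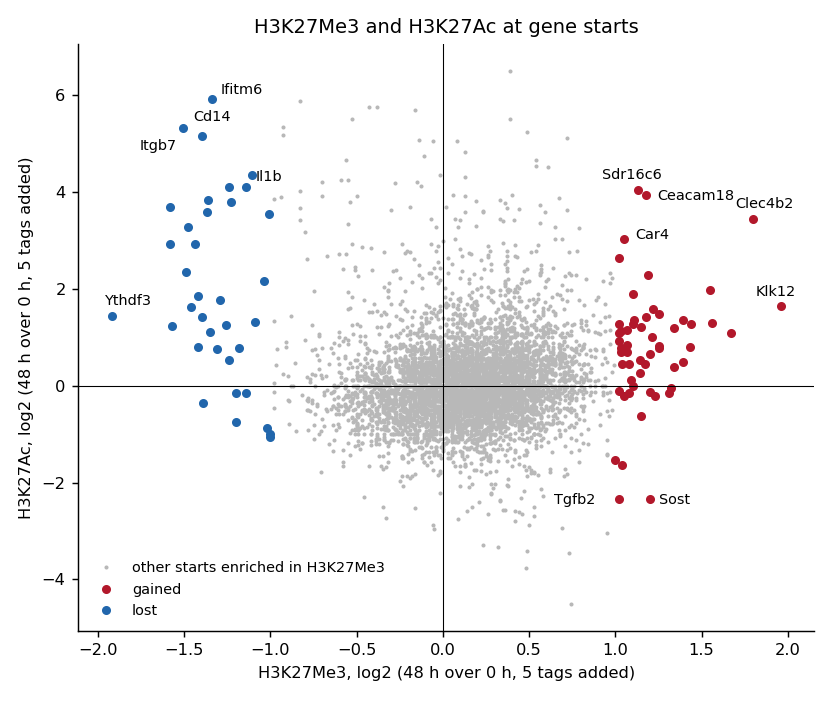
Log2 change from 0 to 48 h of H3K27Me3 (x axis) and of H3K27Ac (y axis) in 5 kb at gene starts that were enriched in H3K27Me3 at 0 or 48 h, with 5 tags added. Blue points are lost, red points gained and grey points other starts. Lost starts such as Ifitm6, Cd14 and Itgb7 lie at the upper left, and Sdr16c6, Ceacam18 and Clec4b2 lie at the upper right among the gained starts.

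The same was seen in the gained domains, and more widely. H3K27Ac was at least 2-fold higher in 119 of the 169 gained domains and at least 2-fold lower in 1, and H3K4Me1 was at least 2-fold higher in 125. Of the 8882 domains enriched at 48 hpi with at least 3 enriched windows, 14.7% had H3K27Ac and 10.2% had H3K4Me1 at least 2-fold higher. At 0 hpi 2 of the 169 held more H3K27Ac than the genome mean for their length and at 48 hpi 67 did, while these shares were 10.00% and 18.2% among the 8882 domains. The domain of Clec4b2 and Clec4n (chr6:123120001-123190000) had 112 H3K27Ac tags at 0 and 1515 at 48 hpi beside 388 and 1099 of H3K27Me3. The kallikrein domain had 150 and 1371 H3K27Ac tags, whereas that of the olfactory receptors had 82 and 143, far below the mean at both times. Among gained windows, 1.49% were enriched in H3K27Ac at 0 and 9.11% at 48 hpi, and for H3K4Me1 these shares were 2.74% and 23.6%. Over all windows they were 7.65% and 11.0% for H3K27Ac and 12.4% and 14.3% for H3K4Me1. Over windows enriched in H3K27Me3 at 0 or 48 hpi they were 3.42% and 6.77% for H3K27Ac and 11.1% and 14.9% for H3K4Me1. In H3K27Ac, gained windows thus stayed below the share of all windows. They went from below to above the share of windows enriched in H3K27Me3. Summed over whole domains, H3K27Ac and H3K4Me1 were thus each higher in most gained domains. In single gained windows H3K27Ac was at least 2-fold higher in 40.4% and H3K4Me1 in 36.9%, against 8.06% and 5.70% of all windows. Marks on the same nucleosomes, on other nucleosomes of the domain and in different cells of the culture cannot be told apart in these libraries.

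Starts enriched in H3K27Ac at 0 or 48 hpi (at least 50 tags) were also grouped by their H3K27Ac change. The other 10725 starts with tags, 46 gained and 7 lost ones among them, are in none of these groups. The shares over all starts were 0.165% lost and 0.252% gained, and at the 8589 acetylated starts within 2-fold the median H3K27Me3 change was 0.00, with 4 lost and 3 gained. At the 73 acetylated starts where H3K27Ac was at least 16-fold higher, the median was 46 H3K27Me3 tags at 0 and 33 at 48 hpi (median change -0.30). Of these 73, 71.2% were lower, against 48.0% of those within 2-fold, 6 were lost and 1, Sdr16c6, was gained. At the 299 acetylated starts with 4 to 16-fold more H3K27Ac the median change was 0.00, with 10 lost and 3 gained. At the 521 with 2 to 4-fold more it was -0.08, with 9 lost and 0 gained. Among the members of these groups that were enriched in H3K27Me3, the median was -0.22 with at least 16-fold, 0.13 with 4 to 16-fold and 0.08 with 2 to 4-fold more H3K27Ac, and 0.10 within 2-fold. Over all 1613 acetylated starts with at least 2-fold less H3K27Ac the median was 0.08, with 0 lost and 2 gained, and over their members enriched in H3K27Me3 it was 0.18. Starts enriched in H3K27Me3 but not in H3K27Ac had 0.18 as well. Only members enriched in H3K27Me3 could be called. These were 36 of the 73, 154 of the 299, 178 of the 521, 1293 of the 8589 and 219 of the 1613. The limit thus kept most of these acetylated starts from a call. Among the 36, 6 were lost. In each group the quartiles of the change at enriched members lay within 2-fold.

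Lists of genes were read at the same starts. Of 36 macrophage genes 3 were lost (Cd14, Tlr2 and Il1b) and 1 was gained (Fpr1), and the median change was -0.04, while 0.165% and 0.252% of all starts were called in these directions. Il1b, at the limit of 50 tags at 0 hpi, and Fpr1 were not called under every scaling and thinning described above, while Cd14 and Tlr2 were. Fpr1, a receptor for formylated bacterial peptides, had 63, 85, 72, 115 and 133 tags (1.02, 0.64 to 1.53), and its H3K27Ac was 3 and 45. The 5 kb windows of 2 other starts overlap its own. The neighbouring Fpr2 had 64 H3K27Me3 tags at 0 and 100 at 48 hpi and 11 and 364 of H3K27Ac. Csf3r, the receptor for G-CSF, had 71 and 114 (0.65).

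At 24 pre-B cell genes 0 starts were gained and 0 lost, where the shares over all starts (0.252% and 0.165%) would give about as many. The median was 13 tags at 0 and 16 at 48 hpi, and the median change was 0.08. Enriched starts numbered 1 at 0 and 3 at 48 hpi. Igll1 had 7 and 18 tags (0.94, 0.04 to 2.86), Cr2, a complement receptor of B cells, 12 and 24, and Pou2af1, a B cell coactivator, 13 and 9. Flt3, a cytokine receptor of lymphoid progenitors, had the highest level of the list, with 130 and 119 tags, and Ms4a1, which encodes CD20, had 45 and 80 (0.77, 0.29 to 1.39).

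Among 13 granulocyte genes 0 were called, too few genes to tell from the shares of 0.252% and 0.165% over all starts. Camp, the cathelicidin of neutrophil granules, had 42, 36, 45, 18 and 9 tags (-1.75, -3.45 to -1.16), below the enrichment limit at both ends, and its H3K27Ac was 16 and 1178. Elane, neutrophil elastase, had 51 and 29 and Mmp9, a gelatinase, 63 and 32. Mpo, myeloperoxidase, had 66 and 110 (0.70) and Ltf, lactoferrin, 49 and 89 (0.80), with at most 11 H3K27Ac tags at either time.

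Classic Polycomb targets were read as lists too, in which few calls could be expected at the background shares of 0.252% gained and 0.165% lost. Of 40 starts of 39 Hox genes, regulators of body position, 29 were enriched at 0 and 28 at 48 hpi, 0 were called and the median change was 0.02. The largest differences were at Hoxc12, with 121 and 71 tags (-0.73, -1.21 to -0.33), and at Hoxb5, with 9 and 19 (0.78, -0.14 to 2.41). Of 56 starts of 55 developmental transcription factors 19 and 18 were enriched, 0 were called and the median change was -0.10. The largest differences there were at Nr2f2, an orphan nuclear receptor (24 and 8 tags, -1.16), and Foxa1, a pioneer factor of endoderm (16 and 32, 0.82), neither of them enriched. Among 51 Wnt, Fgf and Bmp ligand genes 24 and 26 were enriched, 0 were called and the median was 0.25. Bmp7 had 28 and 12 tags (-0.96) and Wnt9b 59 and 90 (0.57), and the highly decorated Wnt3 had 130 and 86.

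At 29 Polycomb and H3K27 demethylase genes the median was 28 tags at 0 and 30 at 48 hpi, beside 26 and 24 over all starts. Of these starts 9 were enriched at 0 and 11 at 48 hpi, among them the Polycomb subunit genes Pcgf6 (122 and 96 tags) and Cbx2 (96 and 93). In this list and the next 0 were called, which the shares over all starts (0.252% gained and 0.165% lost) would give as well. The demethylase gene Kdm6a had 8 and 21 tags (1.0, 0.16 to 2.78) and Rbbp4, a histone-binding subunit, 13 and 4 (-1.0, -3.77 to -0.01), while Pcgf5, a subunit of Polycomb repressive complex 1, had 48 and 76 (0.61). Of 7 cyclin-dependent kinase inhibitor genes, Cdkn1a, the inhibitor p21, was at 42 and 57 tags and Cdkn1b, the inhibitor p27, at 35 and 26. At Cdkn2a, a target of Polycomb in many cell types, there were 7 and 5.

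Lists of other lineages are too small for calls to be likely at the background shares of 0.252% gained and 0.165% lost. Among 20 T lineage genes 0 were called (median change 0.09), with Tcf7, a transcription factor of T cell progenitors, at 52 and 31 tags and the co-receptor Cd4 at 79 and 118. Among 16 erythroid and stem cell genes 0 were called (0.04), with Nfe2 at 22 and 13 and Gata2 at 34 and 51. Among 15 fibroblast and epithelial genes 1 was gained, the collagen gene Col1a2 (27 to 61 tags, 1.04, 0.50 to 1.89), and Cdh1, E-cadherin, had 62 and 125 (0.96). At 12 genes used by every cell 0 were enriched at either time and the median change was 0.21, from medians of 10 and 11 tags, with Polr2a, the largest subunit of RNA polymerase II, at 20 and 9 and Pgk1, a glycolytic enzyme, at 5 and 11. Of 1087 olfactory receptor genes 7 were gained and 0 lost, beside the same shares of 0.252% and 0.165% over all starts. Of the 7, 5 lie in the group of Olfr687 to Olfr691, which can share 1 domain, and the median change was -0.12.

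**Figure D5:**
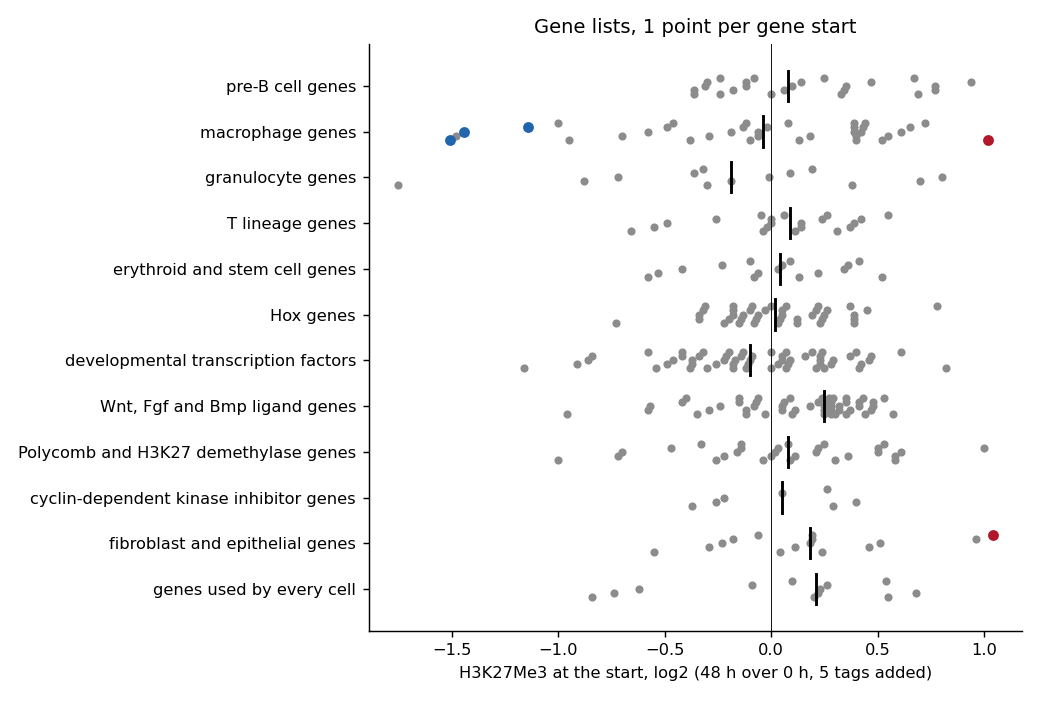
Log2 change of H3K27Me3 from 0 to 48 h (x axis, 5 tags added) at the starts of each gene list (rows), 1 point per start, with the list's median as a black bar. Blue and red points are lost and gained starts by the 2-fold rule, grey points all others. The 3 blue points are Cd14, Tlr2 and Il1b and the 2 red ones Fpr1 and Col1a2, and the list medians lie between -0.19 and 0.25. The olfactory receptor genes are not drawn.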

How the data were processed

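The labels' mark and time put each ChIP-seq library of C10 cells in a group of its own. The authors aligned reads to mm9 without mismatches and removed non-unique and identical tags. The study's methods name Eland or Bowtie, and the submitters' processing notes name Bowtie for these libraries. The deposited files hold tag positions of 36 bp without strand, so every count was made here. The 5 H3K27Me3 libraries and H3K27Ac and H3K4Me1 at 0 and 48 hpi were used, 9 of 15 files. In the files of 12 and 24 hpi, 2 lines without a position each were dropped.

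For each library 1 tag per position on chromosomes 1 to 19 and X was kept, placed 18 bp from its start, and the tags were thinned to the depth of the shallowest library used for that mark (15.34 M for H3K27Me3, 15.22 M for H3K27Ac and 10.91 M for H3K4Me1). A window was mappable when any H3K27Me3 library held a tag in it. The limit of 50 tags is a Poisson upper tail below 0.001 over the mean window, 1.64 times the mean. Starts are the 5′ ends of protein-coding genes of the GENCODE vM1 annotation on NCBIM37, which is mm9. Named were the 12 called starts with the largest change in each direction, up to 4 called members of each gene list (or, with 0 called, those with the largest rise and fall) and the 6 domains per direction with the largest tag difference. Other starts and domains named, and the groups of neighbouring starts, were chosen after their values were seen. The members and gene lists were chosen with earlier results of these data known. The scripts (Python 3.11.15, numpy 2.4.6, scipy 1.17.1) were tested on simulated data. With 1 library a side no test was made, and counting intervals do not cover PCR copies at different positions. Alternatives covered scaling, added tags, filters, fold, window size, grid, seed and joining.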

Additional observations from a re-analysis of the deposited data

Results flagged for a closer look

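Tags on chromosome Y, which no comparison used, exceeded the limit of 3 tags for a count of 0. The H3K27Me3 file of 0 hpi held 2815 distinct positions there and that of 48 hpi 1864, in libraries of 31.56 M and 15.36 M tags.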

How the results depend on the processing

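No paired analysis was possible because the result comes from no test and no time was replicated. In all, 52 results were recomputed under the alternatives, which gave 387 values. Of the counts and medians that answer a comparison, 68 stayed within 1.5 times (counts) or the 95% interval of the median, and 51 moved further. A reversal was scored only for the medians of the gained and lost starts, of which 0 reversed. It was not scored for counts, and the order of gained and lost counts did turn under some alternatives given below. Of 216 values at the 24 leading starts, 14 left their counting interval and 2 reversed, both at Itsn1, which changed by 0.30 with 2 kb at the start and by 0.28 at the annotated start with the most tags.

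Scaling by background windows gave 116 gained starts, a median change of 0.12 at starts, 3748 gained and 173 lost windows and 300 gained domains with 1 lost, and moved the median H3K4Me1 change to 1.03 at gained and 1.28 at lost starts. Scaling by windows enriched in both libraries gave 24 gained and 57 lost starts, a median of -0.12, 910 gained and 755 lost windows and 82 gained and 12 lost domains. With 20 tags added there were 17 gained and 17 lost starts, 663 gained and 67 lost windows and 58 gained and 0 lost domains. With 1 tag added, lost windows numbered 600 and the median H3K27Ac change of gained starts was 1.26.

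Without a filter on low counts there were 163 gained and 321 lost starts, 4189 gained and 8944 lost windows and 36 lost domains, so the order of the directions at starts and windows turned. With the filter at 2 times the mean window there were 172 lost windows and 3 lost domains. A 1.5-fold change gave 552 gained and 159 lost starts, 12038 and 3697 windows and 953 and 84 domains. A 3-fold change gave 3 and 3 starts, 124 and 21 windows and 6 and 0 domains. All tags scaled by total gave a median of -0.01, 180 lost windows and 3 lost domains, and another seed gave 3 lost domains.

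With 2 kb at the start there were 134 gained starts, and with 10 kb the lost starts changed by -0.41 from 3 to 24 hpi. Without joining across gaps there were 2 lost domains, and with at least 5 windows there were 65 gained and 1 lost. The cause of these moves was not tested. With 30.5 tags in the mean window, counting intervals at single starts are wide.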
